A study of Mus musculus with 6 samples.

Results

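The genes followed here are the nuclear-encoded subunits of the mitochondrial respiratory chain and ATP synthase, measured on 6 one-colour Agilent mouse arrays. Members were taken by array name, as Nduf followed by a, b, c, s or v, Sdha to Sdhd, Uqcr, Cox4 to Cox8 or Atp5. Each gene was represented by its brightest probe on average over the arrays. This gave 90 of 30187 named genes, on 134 probes, of which 60 genes had 1 probe and 30 had more. By known role, 7 were core and 30 accessory subunits of complex I, 4 belonged to complex II, 8 to complex III, 10 to complex IV and 15 to complex V, and 8 were isoforms restricted to some tissues. A further 8 names are not subunits: 4 complex I assembly factors (Ndufaf1 to Ndufaf4) and 4 other genes, among them Cox4nb, now known as a component of an endoplasmic reticulum complex. Ndufa4 is counted with complex I by its name, although it is now assigned to complex IV.

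The arrays came from C57BL/6 mice that were either TIARP-/- (KO) or TIARP+/+ (WT), and the TIARP gene is listed on the array as Steap4, whose product reduces metal ions at membranes. For each genotype 1 array held Ly6G+ splenic neutrophils isolated with magnetic beads, 1 held thioglycollate-elicited peritoneal macrophages with the TNFα label, and 1 held such macrophages without that label. Macrophages were collected on day 3 and TNFα was given for 24 h. Hours are stated for the TNFα arrays only, so time in culture may differ between arrays with and without TNF. The labels number 3 mice for each array, and neither their pooling nor their age is given in the sources used here. Which cells lack the gene besides those measured, and which part of it was deleted, is likewise not given there. Each group had 1 array, so no difference below has a replicate check and no p-value is given.

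A level is the log2 of the scanner's processed signal minus the 75th percentile of its array, so 0 marks the brightness of the probe at that percentile. That percentile was 224 and 231.3 for KO and WT neutrophils, 337.7 and 432.1 for KO and WT macrophages with TNF, and 409.5 and 489.8 for KO and WT macrophages without TNF. Between 56.6% and 62.2% of probes were well above background. Repeated spots of 1 probe on 1 array had a median SD of 0.0789 to 0.103 on the log2 scale, which covers technical scatter only. Steap4 was lower on each KO array than on its WT counterpart, by -0.39 in neutrophils, at least 3.00-fold with TNF and -0.81 without TNF, but its single probe may lie outside the deleted part. Of the 90 members, 86 were well above background on all 6 arrays. Cox7b2, Cox8b and Cox8c, isoforms of testis or of heart and muscle, were not well above background on any array, and Ndufa4l2 was dim on the KO neutrophil array only. The remaining 87 members were measured in every comparison. A member was called higher or lower when it differed by at least 2-fold (1 on the log2 scale), and a wider rule used 1.5-fold.

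Oxidative phosphorylation moves electrons from NADH through complex I, or from succinate through complex II, to ubiquinone, then through complex III and cytochrome c to complex IV, which reduces oxygen. Complexes I, III and IV pump protons, and complex V, the ATP synthase, uses the proton gradient to make ATP. In macrophages, inflammatory activation is known to shift metabolism toward glycolysis, and mature neutrophils are known to rely mostly on glycolysis and to hold few mitochondria.

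The 6 arrays fell in a common order for most members. Among the 86 members well above background throughout, the KO neutrophil array was the lowest of the 6 for 78 (90.7%, against 29.3% of all genes). The KO macrophage array with TNF was the highest for 53 (61.6%, against 14.5% of all genes), and the WT macrophage array with TNF was the highest for another 22. Which macrophage array came highest depends on the scaling: under quantile normalization the counts were 36 for KO and 32 for WT with TNF, and under spike-in scaling 0 and 77, while KO neutrophils were the lowest for 75 and 85. For 76 of the 86, both neutrophil arrays lay below all 4 macrophage arrays, a pattern seen in 37.9% of all genes. The reverse held for 4 members, Atp5sl, Cox4i2, Cox6b2 and Cox7a2l, and for 36.7% of all genes.

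**Figure D1:**
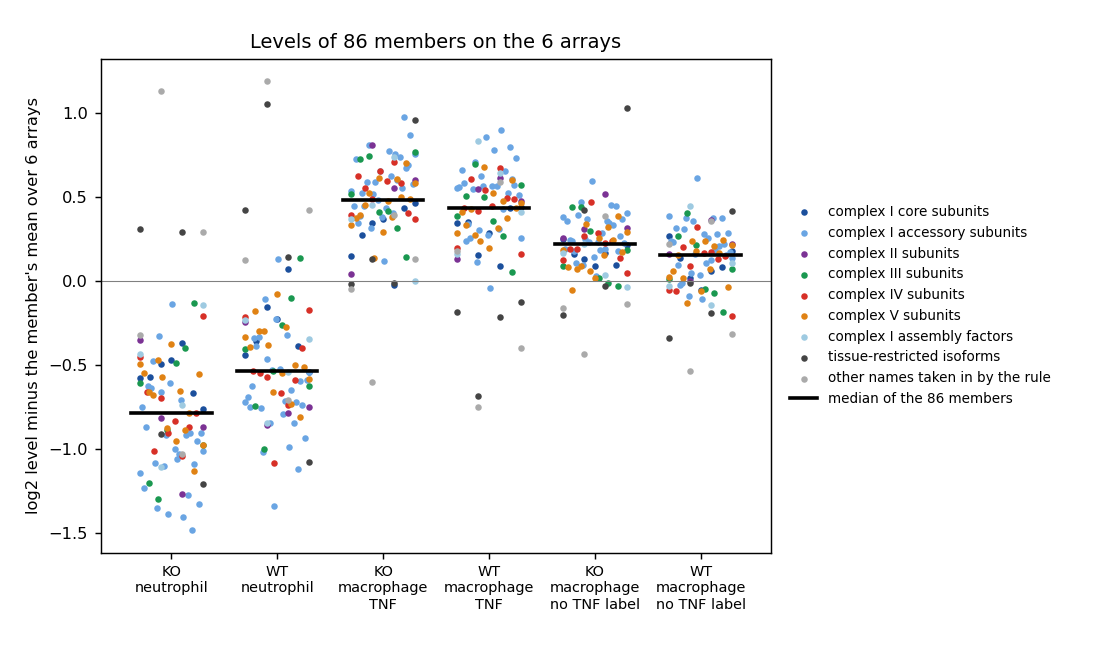
Log2 level of each of the 86 members well above background on all 6 arrays, minus that member's own mean over the arrays (y axis), for the 6 arrays (x axis). Points are genes coloured by class and black bars are medians, which lie below 0 on both neutrophil arrays, lowest on the KO one, and highest on the macrophage arrays with TNF under the 75th percentile scaling (under spike-in scaling the WT array with TNF is the highest for 77 members and the KO one for 0).

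Splenic neutrophils were first set against peritoneal macrophages without TNF within each genotype. As a list, the nuclear-encoded members were lower in neutrophils, with a median log2 difference of -0.98 in KO and -0.68 in WT. For all genes the medians were 0.00022 and 0.02. Of 87 members, 83 were below 0 in KO and 77 in WT, where 48.3% and 49% of all genes were. Above 0 were 4 members in KO and 10 in WT, against 50% and 50.5% of all genes. Past 2-fold, 43 members were lower in KO neutrophils (21.6% of all genes) and 17 in WT neutrophils (20.9% of all genes), so that the WT count is close to the background share. Only 1 member was more than 2-fold higher in KO neutrophils and 2 in WT neutrophils, against 24.2% and 25.3% of all genes. Past 1.5-fold, 69 members were lower in KO (31.8% of all genes) and 47 in WT (31% of all genes), while 1 was higher in KO (33.9% of all genes) and 5 in WT (34.4% of all genes). Because these are bulk samples, fewer mitochondria-rich cells and less RNA per cell cannot be told apart. Scaled to the spike-in probes, the medians of the members were -2.45 in KO and -2.26 in WT while those of all genes were -1.40 and -1.52, and under each of the 9 alternatives the median of the members stayed below 0. Tissue, isolation and elicitation differ between these cells together with cell type and cannot be told apart, and the labels used here do not say whether the mice that gave neutrophils had thioglycollate.

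The 17 members past 2-fold in WT were Ndufa1, Ndufa4, Ndufa5, Ndufa8, Ndufab1, Ndufb6, Ndufb8, Ndufc1, Ndufs5, Ndufaf2, Sdhc, Uqcr11, Uqcrb, Cox6b1, Atp5k, Cox4nb and Cox7a1. The 43 in KO were 21 accessory subunits of complex I, 3 members of complex II, 4 of complex III, 5 of complex IV, 5 of complex V, 3 tissue-restricted isoforms, 1 assembly factor and 1 other name. Within complex I, the accessory subunits, which surround and stabilise the enzyme, differed more than the core subunits that carry out electron transfer. Their median was -1.24 in KO neutrophils and -0.90 in WT neutrophils, against -0.73 and -0.47 for the core. In KO neutrophils 21 of 30 accessory subunits and 0 of 7 core subunits were more than 2-fold lower, where 21.6% of all genes were. In WT neutrophils the counts were 9 and 0, where 20.9% of all genes were. With only 7 core subunits, a count of 0 says little beside such shares. The accessory median lay below the core median under each alternative, between -0.68 and -2.48 against -0.18 and -2.05 in WT neutrophils, though the gap between the classes was not tested. Ndufab1, the mitochondrial acyl carrier protein, had levels of -1.18 in KO neutrophils and -1.14 in WT neutrophils, 0.86 and 1.07 in KO and WT macrophages with TNF, and 0.80 and 0.82 in KO and WT macrophages without TNF. Both neutrophil arrays were thus low by a similar amount, and the log2 differences were -1.98 in KO and -1.96 in WT. Ndufc1, an accessory subunit of the membrane arm, had levels of 4.01 and 4.38 in KO and WT neutrophils, 6.48 and 6.30 in KO and WT macrophages with TNF, and 5.95 and 5.87 in KO and WT macrophages without TNF. It was lower by -1.93 in KO and -1.49 in WT, with the KO neutrophil array the lowest of the 6. Ndufa5, another accessory subunit, differed by -1.82 in KO and -1.40 in WT.

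Core subunits differed less. Ndufs1, the largest iron-sulphur subunit, had levels of 3.14 and 3.28 in KO and WT neutrophils and of 3.96 and 3.98 in KO and WT macrophages without TNF, differences of -0.83 and -0.71. Ndufv1, which binds NADH and flavin, differed by -0.77 in KO and -0.47 in WT. No core subunit passed 2-fold in either genotype.

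Complex II, which is also an enzyme of the TCA cycle, had medians of -1.16 in KO and -0.92 in WT. Sdha, its flavin-binding catalytic subunit, differed by -0.61 and -0.40, and Sdhb, its iron-sulphur subunit, by -1.13 and -0.86. Sdhc, a membrane anchor, had levels of 3.14 and 3.62 in KO and WT neutrophils, 4.96 and 5.01 in KO and WT macrophages with TNF, and 4.92 and 4.76 in KO and WT macrophages without TNF. Both Sdhc values in neutrophils lay below all 4 macrophage values, as in 37.9% of all genes, with differences of -1.78 in KO and -1.15 in WT. In complex III the members ranged from Uqcrb, a ubiquinone-binding subunit, at -1.74 in KO and -1.41 in WT, to Uqcrh, the hinge protein, at -0.10 and 0.32. Uqcrc1, a core protein, differed by -1.19 and -0.75, and Uqcrfs1, the Rieske iron-sulphur protein, by -0.39 and -0.03.

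Complex IV had medians of -1.04 in KO and -0.69 in WT. Cox6b1, which lies where the monomers of the dimer meet, had levels of 1.92 and 1.75 in KO and WT neutrophils, 3.48 and 3.37 in KO and WT macrophages with TNF, and 3.30 and 3.15 in KO and WT macrophages without TNF. It was more than 2-fold lower in neutrophils of both genotypes, at -1.38 in KO and -1.40 in WT. Cox5a differed by -0.85 and -0.48, and Cox4i1, the main isoform of the largest nuclear-encoded subunit, by -0.58 and -0.17. Cox8a, with levels of 7.59 and 7.62 in KO and WT neutrophils and 7.85 and 7.59 in KO and WT macrophages without TNF, differed by only -0.26 and 0.03. Complex V had medians of -0.81 in KO and -0.48 in WT. All 15 of its subunits were below 0 in both genotypes, against 48.3% of all genes in KO and 49% in WT. Its catalytic subunit Atp5b differed by -0.63 and -0.45 and its partner Atp5a1 by -0.68 and -0.35. Atp5k, the subunit e that is needed for dimers of the enzyme, was more than 2-fold lower in both, at -1.52 and -1.05.

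A few names went the other way. Atp5sl, now known as an assembly factor of complex I, had levels of 4.39 and 4.45 in KO and WT neutrophils, 2.65 and 2.50 in KO and WT macrophages with TNF, and 2.82 and 2.71 in KO and WT macrophages without TNF. It was 1.57 higher in KO neutrophils and 1.73 higher in WT neutrophils on the log2 scale. Both neutrophil arrays lay above all macrophage arrays, as in 36.7% of all genes. Under spike-in scaling the Atp5sl differences were 0.10 and 0.15, short of 2-fold. Cox7a2l, a factor in assembling supercomplexes, known for a short variant in C57BL/6 mice, had levels of 7.29 and 7.42 in KO and WT neutrophils and 6.86 and 6.68 in KO and WT macrophages without TNF. Its differences were 0.43 in KO and 0.74 in WT, and its 2 other probes gave 0.36 and 0.40 in KO and 0.63 and 0.68 in WT. Scaled to the spike-in probes, Cox7a2l in WT was at -0.84 and Cox4i2, the lung isoform of Cox4i1, at -0.82, so their direction depends on the scaling.

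Transcripts of the mitochondrial genome, which encodes the remaining 13 subunits of complexes I, III, IV and V, did not follow the nuclear-encoded members. Their median was 2.58 higher in KO neutrophils and 2.33 higher in WT neutrophils than in macrophages without TNF. In each genotype 12 of 13 were more than 2-fold higher, against 24.2% of all genes in KO and 25.3% in WT. The medians were 1.11 and 0.75 under spike-in scaling. The array probes for a light-strand and for heavy-strand transcripts are shown because they differ in this comparison. They lie on mm9, COX1 at chrM:6650-6709 and CYTB at chrM:15099-15158 on the plus strand, and ND6 at chrM:13552-13611 on the minus strand.
COX1: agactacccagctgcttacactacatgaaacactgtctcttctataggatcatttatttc
CYTB: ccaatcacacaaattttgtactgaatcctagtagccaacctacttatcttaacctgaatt
ND6: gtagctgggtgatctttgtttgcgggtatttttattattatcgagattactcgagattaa
CYTB, the cytochrome b of complex III, had levels of 8.71 and 8.79 in KO and WT neutrophils, 5.68 and 5.99 in KO and WT macrophages with TNF, and 5.92 and 6.24 in KO and WT macrophages without TNF. COX1, the catalytic subunit of complex IV, had levels of 10.03 and 10.09 in KO and WT neutrophils and 8.39 and 8.42 in KO and WT macrophages without TNF. Both genes were high on the neutrophil arrays without overlap, a pattern seen in 36.7% of all genes. Under spike-in scaling the differences were 1.32 in KO and 0.98 in WT for CYTB and only 0.18 and 0.09 for COX1. ND6, a subunit of complex I and the one protein read from the light strand, had levels of 0.93 and 0.61 in KO and WT neutrophils and 0.80 and 0.61 in KO and WT macrophages without TNF, so it hardly differed (0.14 in KO and -0.0026 in WT). The file places the ND3 probe on chromosome 1 and not on the mitochondrial genome, so which transcript it measures is uncertain.

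Most lists of other mitochondrial genes encoded in the nucleus lay on the same side as the members. The 17 genes of the TCA cycle had medians of -0.72 in KO and -0.54 in WT, and the 73 mitochondrial ribosomal proteins had medians of -0.75 and -0.52. Cytosolic ribosomal proteins, which like the members are bright and broadly expressed, were at 0.71 in KO and 0.96 in WT, but at -0.76 and -0.62 when scaled to the spike-in probes. Cycs, the electron carrier cytochrome c, differed by -1.30 in KO and -1.24 in WT and Cyc1, the cytochrome c1 of complex III that the name rule leaves out, by -0.88 and -0.59. The voltage-dependent anion channels Vdac1 and Vdac2 of the outer membrane differed by -1.74 and -1.54 in KO and by -1.42 and -1.48 in WT. Assembly factors other than those taken by name were at medians of -0.39 and -0.19, and the list of uncoupling, ATP export and related genes at -0.80 and -0.52. Regulators of mitochondrial biogenesis had a median of 0.13 in KO and 0.06 in WT over 15 genes, but of -1.34 and -1.52 under spike-in scaling, close to the medians of all genes there. Ppargc1a, a coactivator of such genes, was more than 2-fold higher in both, at 1.64 and 1.90, a call lost under spike-in scaling (0.17 and 0.33).

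**Figure D2:**
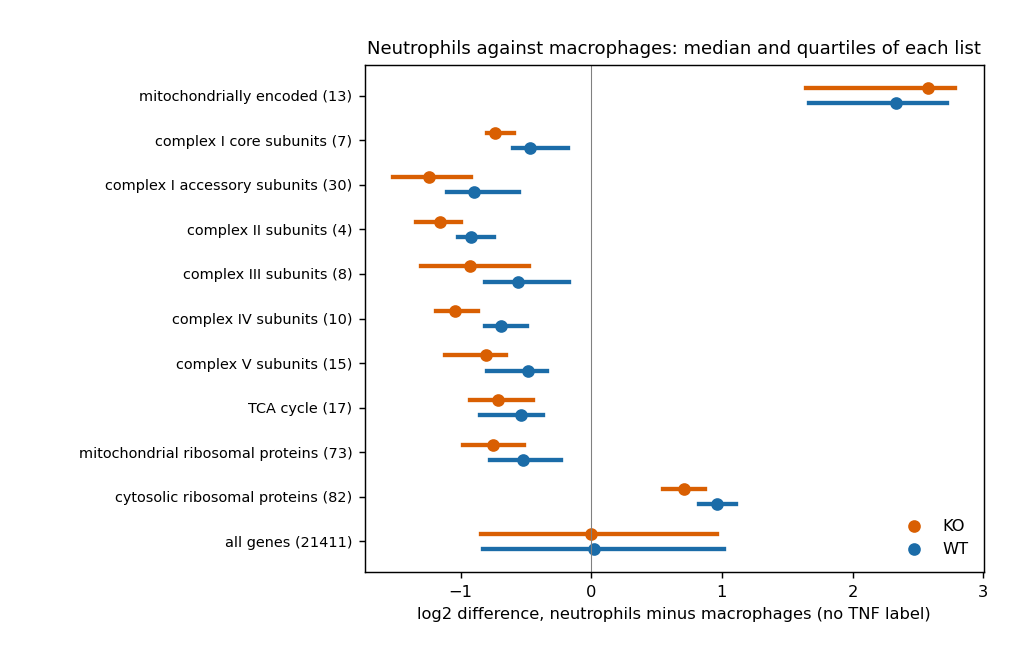
Median (point) and quartiles (bar) of the log2 difference, neutrophils minus macrophages without TNF (x axis), for each list (y axis, number of genes measured in KO in brackets), KO above WT. Nuclear-encoded complexes lie between -0.47 and -1.24 and mitochondrially encoded genes at 2.58 in KO and 2.33 in WT, and the cytosolic ribosomal proteins turn negative under spike-in scaling.

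Markers of other cells moved in the same comparison. Of 6 neutrophil markers, 6 were more than 2-fold higher in KO neutrophils and 5 in WT neutrophils than in the macrophages, with medians of 3.07 and 4.98. The neutrophil arrays also carried B-cell markers (4 of 4 more than 2-fold higher in each genotype, medians 4.81 in KO and 6.90 in WT), plasma-cell markers (2 of 3 in each) and erythroid markers (5 of 5 in KO and 4 of 4 in WT). T-cell markers were above 0 (3 of 3 in each, medians 0.23 in KO and 1.56 in WT). Spike-in scaling lowers the differences in these comparisons by 1.47 in KO and 1.58 in WT. Each is more than the T-cell median of that genotype, so the direction of the T-cell medians depends on the scaling. Macrophage markers were more than 2-fold lower in 5 of 6 cases in KO neutrophils and in 3 of 6 in WT neutrophils, and fibroblast and mesothelial markers in 4 of 4 in each. Of all genes, 24.2% in KO and 25.3% in WT were more than 2-fold higher, and 21.6% and 20.9% more than 2-fold lower. The part these cells have in the lower levels of the members was not tested.

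Since most members moved together across the arrays, their promoters were searched for sites of factors known to control respiratory genes. RefSeq promoters on GRCm38.p6, the 250 bases before the start, were found for 74 of the 90 members. The letters searched on both strands were GCGC, any base and TGCGC in a row for NRF1, CCGGAAG for the ETS family that includes GABPA, and AAGATGG followed directly by CGG for YY1. The NRF1 letters were in the promoters of 14 members (18.9%, against 4.23% of 27025 genes), the ETS letters in 13 (17.6%, against 7.83%), and those of YY1 in 2 (2.70%, against 0.359%). At least 1 of the 3 was present in 25 members (33.8%, against 11.6%). Among the classes counted, this held for 7 of 14 complex V genes, 2 of 5 complex III genes and 8 of 28 complex I accessory genes. It also held for 2 of 8 complex IV genes, 1 of 5 complex I core genes and 0 of 4 tissue-restricted isoforms. The comparison took all genes with a promoter, without matching for expression or base composition. The promoters printed next show members with several, with 1 and with no matches, and capitals mark the matches. Cox6a1 (chr5:115348959-115349208, minus strand) has 2 for NRF1 and 1 for ETS, and Ndufb4 (chr16:37654369-37654618, minus strand) has 3 for NRF1. Cox6b1 (chr7:30626115-30626364, minus strand) has 1 for ETS, and Cox7a1 (chr7:30183921-30184170, plus strand), the heart and muscle isoform, has none.
Cox6a1: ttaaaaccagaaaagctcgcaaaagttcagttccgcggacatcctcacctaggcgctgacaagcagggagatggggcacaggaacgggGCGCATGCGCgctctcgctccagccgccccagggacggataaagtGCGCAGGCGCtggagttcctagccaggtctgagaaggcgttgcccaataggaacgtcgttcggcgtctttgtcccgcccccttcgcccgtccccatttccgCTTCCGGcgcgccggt
Ndufb4: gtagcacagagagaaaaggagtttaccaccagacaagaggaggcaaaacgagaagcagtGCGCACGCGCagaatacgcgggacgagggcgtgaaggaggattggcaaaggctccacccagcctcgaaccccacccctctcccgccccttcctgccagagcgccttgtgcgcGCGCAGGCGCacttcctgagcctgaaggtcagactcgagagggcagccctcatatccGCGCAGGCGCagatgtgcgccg
Cox6b1: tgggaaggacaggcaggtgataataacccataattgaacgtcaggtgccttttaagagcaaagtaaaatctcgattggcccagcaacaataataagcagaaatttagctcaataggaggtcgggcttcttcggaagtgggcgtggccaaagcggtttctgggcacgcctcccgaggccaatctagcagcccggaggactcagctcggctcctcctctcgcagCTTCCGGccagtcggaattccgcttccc
Cox7a1: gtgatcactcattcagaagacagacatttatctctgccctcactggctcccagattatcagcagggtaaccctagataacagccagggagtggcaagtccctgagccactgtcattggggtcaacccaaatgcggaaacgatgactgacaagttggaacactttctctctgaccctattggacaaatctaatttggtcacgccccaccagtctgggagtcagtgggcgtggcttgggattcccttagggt
Members with and without these letters differed little. Neutrophils minus macrophages, the median was -1.16 in KO and -0.87 in WT for the 14 members with NRF1 letters, -0.97 and -0.66 for the 13 with ETS letters, and -0.94 and -0.68 for the 47 with a promoter but none of the 3. Ndufb4, an accessory subunit of complex I with 3 matches, differed by -1.32 in KO and -0.97 in WT, and Cox6a1 by -0.97 and -0.66. Cox7a1, with none, was among the lowest, at -2.24 and -1.50.

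The next comparison set KO neutrophils against WT neutrophils. Members were lower in KO, with a median log2 difference of -0.27 against -0.02 for all genes, and 83 of 87 were below 0 (52.4% of all genes). The median lay between -0.22 and -0.68 over the alternatives. Under the scaling used for the levels the differences were small. There, 2 members were more than 2-fold lower (4.99% of all genes), Cox6a2 and Ndufa4l2. The same 2 were the only ones more than 1.5-fold lower (10.4% of all genes), and 0 were higher by either rule (4.85% and 11.5% of all genes). These counts depend on the scaling. Under spike-in scaling the median of the members was -0.68, itself past the 1.5-fold limit of 0.585, and that of all genes was -0.44. All 37 complex I subunits, all 8 of complex III and all 15 of complex V were below 0. Medians by class were -0.24 for the complex I core, -0.31 for its accessory subunits, -0.12 for complex II, -0.30 for complex III, -0.20 for complex IV and -0.29 for complex V.

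Besides Cox6a2 and Ndufa4l2, the lowest members were Ndufc2 at -0.49, Atp5c1, the gamma subunit of the ATP synthase rotor, at -0.48, and Ndufa11 at -0.48. Ndufc2 had levels of 3.93 in KO neutrophils and 4.42 in WT neutrophils, and Atp5c1 had levels of 5.44 and 5.93. Of the core genes, Ndufs1 differed by -0.14, Ndufv1 by -0.28, Uqcrc1 by -0.35, Cox4i1 by -0.24, Atp5a1 by -0.16 and Atp5b by -0.15. The 4 members above 0 (47.6% of all genes) were Ndufaf4 (0.20), Cox6b1 (0.17), Cox6b2 (0.15) and Sdhb (0.04). Spike-in scaling lowers the differences by 0.41, so that all 4 fall below 0 and their direction depends on the scaling. Sdhb had levels of 5.35 in KO neutrophils and 5.30 in WT neutrophils.

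Other lists and the markers moved beside the members. The 73 mitochondrial ribosomal proteins were at a median of -0.25, the TCA cycle genes at -0.21, the cytosolic ribosomal proteins at -0.14 and the mitochondrially encoded genes at -0.08. Macrophage markers were lower on the KO array (6 of 6 below 0, median -1.23), as were plasma-cell markers (3 of 3, median -2.28). Erythroid markers were higher (5 of 5, median 1.68) and neutrophil markers also (6 of 6 above 0, median 0.44). Of all genes, 52.4% were below 0 and 47.6% above 0. Spike-in scaling lowers the differences in this comparison by 0.41, close to the whole median of the neutrophil markers. B-cell and T-cell markers were at medians of -0.09 and -0.20. Their part in the members' difference was not tested.

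In macrophages, KO and WT members differed less under the scaling used for the levels. Without TNF the median was 0.10, against 0.06 for all genes, with 15 of 87 members below 0 (39.4% of all genes) and 72 above 0 (60.1%). With TNF it was 0.08, against 0.03 for all genes, with 26 below 0 (44.9%) and 61 above 0 (53.6%). These directions depend on the scaling: without TNF the median was -0.0054 under quantile normalization, -0.0025 with the trend against intensity removed and -0.43 under spike-in scaling, and with TNF it was -0.70 under spike-in scaling, where the median of all genes was -0.46 without and -0.73 with TNF. More than 2-fold higher were 1 member without TNF, Ndufa4l2 (4.01% of all genes), and 2 with TNF, Ndufa4l2 and Cox7a1 (6.99% of all genes), and 0 members were more than 2-fold lower (1.73% and 2.91% of all genes). By the 1.5-fold rule 2 were higher without TNF (9.39% of all genes), adding Cox7a1, and 3 with TNF (13.6% of all genes), adding Cox6a2, and 0 were lower (5.61% and 7.74% of all genes). The counts depend on the scaling too, since the spike-in median of the members with TNF lies past the 1.5-fold limit.

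**Figure D3:**
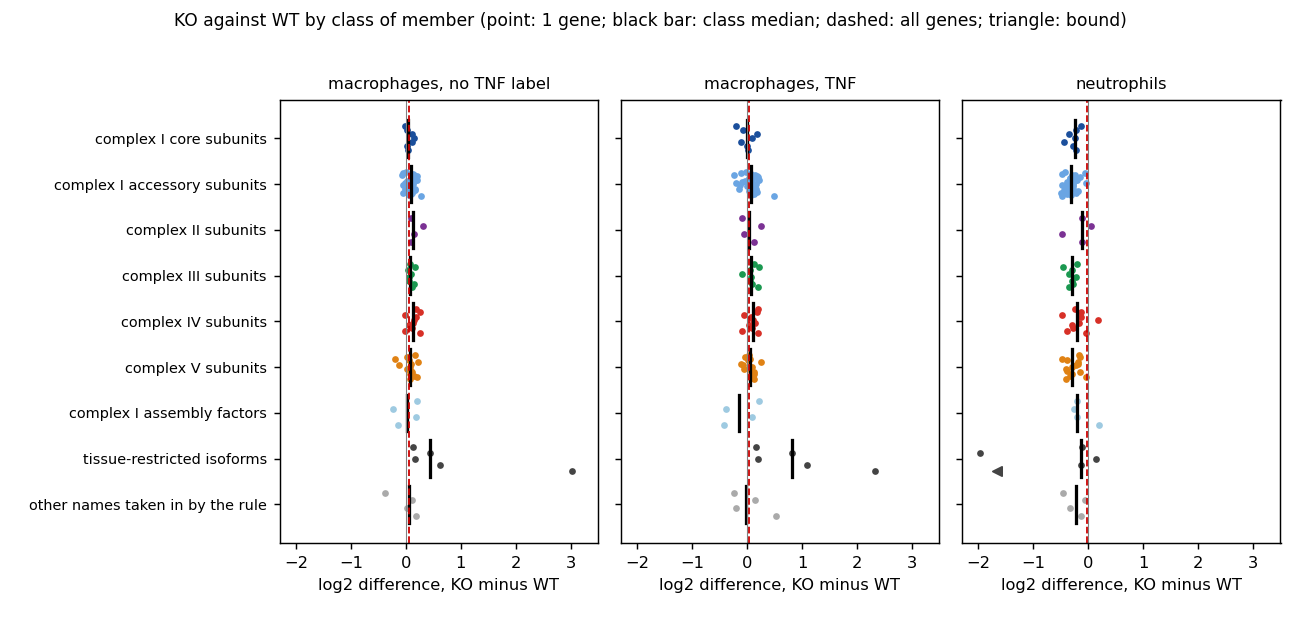
Log2 difference KO minus WT (x axis) for each class of member (y axis) in macrophages without TNF, macrophages with TNF and neutrophils. Points are genes, black bars class medians, the dashed line the median of all genes and the triangle a bound. Class medians of the subunits lie between -0.12 and -0.31 in neutrophils and close to 0 in macrophages, where their sign turns under spike-in scaling, and the points farthest from 0 are tissue-restricted isoforms.

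Under the scaling used for the levels, the catalytic members were close to equal between genotypes in macrophages. This closeness depends on the scaling, because spike-in scaling lowers the KO minus WT differences by 0.78 with TNF and 0.52 without TNF. Ndufv1 had levels of 5.42 in both KO and WT macrophages with TNF, and 5.08 and 5.07 without TNF. Atp5b had levels of 7.69 and 7.73 with TNF and 7.40 and 7.37 without. Uqcrfs1 had 5.39 and 5.34 with TNF and 5.06 and 5.00 without. Ndufv3, a short accessory subunit of the NADH-oxidising module, was the most different of the complex I subunits with TNF, at 6.53 in KO and 6.03 in WT (0.50). Its other probes gave 0.51 and 0.0057, so they disagree. Cox7a2l was at 7.13 in KO and 6.60 in WT with TNF (0.53), and its other probes gave 0.35 and 0.50. The lowest members were Ndufaf4 and Ndufaf2, at -0.41 and -0.38 with TNF and -0.15 and -0.23 without, Atp5s, the coupling factor B, at -0.23 and -0.38, Ndufa12 at -0.24 with TNF and Atp5c1 at -0.21 without. None of these lowest members passed 1.5-fold under the scaling used for the levels, but the spike-in shift takes their values with TNF past it. Sdhb was higher by 0.26 with TNF and 0.31 without, each less than the spike-in shift, so its direction depends on the scaling.

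The 3 genotype comparisons share no array. Lower on all 3 KO arrays were 12 members (17.8% of all genes): Atp5g1, Atp5s, Cox5b, Cox7c, Ndufa1, Ndufa10, Ndufa12, Ndufab1, Ndufaf2, Ndufb2, Ndufb6 and Ndufs1. Higher on all 3 were 3 members (25.1% of all genes), Cox6b1, Cox6b2 and Sdhb. Both counts were made under the 75th percentile scaling, and under spike-in scaling 84 members were lower and 0 higher on all 3. Higher on both KO macrophage arrays and lower on the KO neutrophil array were 56 members (64.4%, against 21.8% of all genes). That count was 29 under quantile normalization, 27 with the trend against intensity taken out and 2 under spike-in scaling. Cell markers differed between these macrophages too. Without TNF, KO had more of the neutrophil markers (6 of 6 above 0, median 2.02) and B-cell markers (4 of 4, median 1.93) and less of the fibroblast and mesothelial markers (3 of 4 below 0, median -1.07). With TNF the medians were 1.56 (5 of 6 above 0), 2.09 (4 of 4 above 0) and -0.996 (4 of 4 below 0). T-cell markers were also higher in KO (3 of 3 above 0, 2 past 2-fold), with medians of 1.20 with TNF and 1.15 without TNF. The 2 erythroid markers measured of 5 had medians of -0.67 with TNF and 1.11 without TNF, the plasma-cell markers of -0.09 and -0.13, and the macrophage markers of 0.28 and 0.23. Their part in the values of the members was not tested.

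TNF-labelled macrophages were then compared with macrophages without the label. Members were slightly higher with TNF in both genotypes, with medians of 0.27 in KO and 0.28 in WT against 0.01 and 0.03 for all genes, although under spike-in scaling the KO median was -0.03 (all genes -0.28) and the WT median 0.24 (all genes -0.02). In each genotype 79 of 87 members were above 0, against 51.5% of all genes in KO and 52.2% in WT, and 8 were below 0, against 47.1% and 47.8%. The differences were small, with 0 members past 2-fold in either direction in KO (4.56% higher and 3.96% lower among all genes) or in WT (4.64% and 6.09%). Past 1.5-fold, 3 were higher in each genotype (11.1% of all genes in KO and 10.5% in WT), while 0 in KO and 1 in WT were lower (10.1% and 13.2%). Higher in both genotypes were 76 members (41.1% of all genes), a count of 62 under quantile normalization and 33 under spike-in scaling. For 71 of 86 members both arrays with TNF lay above both arrays without TNF (30.2% of all genes), but for only 1 member under spike-in scaling.

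**Figure D4:**
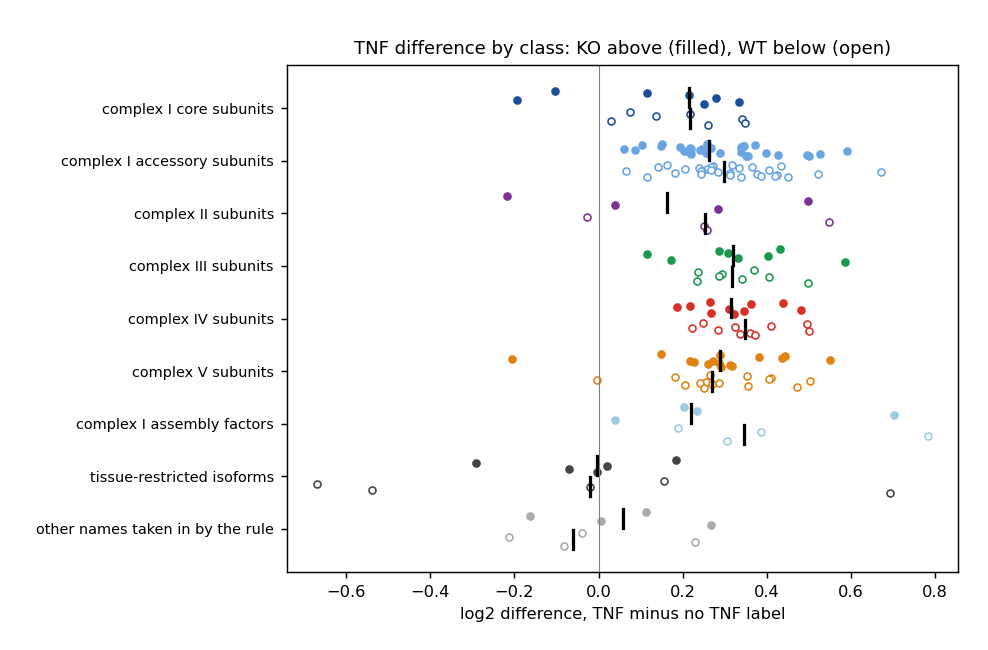
Log2 difference, macrophages with TNF minus macrophages without TNF (x axis), for each class of member (y axis), with KO as filled points above WT as open points and black bars as medians. The subunit classes have medians between 0.16 and 0.35 in both genotypes, which for most classes in KO fall below 0 under spike-in scaling.

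All 30 accessory subunits of complex I, all 8 subunits of complex III and all 10 of complex IV were above 0 in both genotypes under the 75th percentile scaling. Of all genes, 51.5% in KO and 52.2% in WT were above 0. Class medians in KO and then WT were 0.22 and 0.22 for the complex I core, 0.26 and 0.30 for its accessory subunits, 0.16 and 0.25 for complex II, 0.32 and 0.32 for complex III, 0.32 and 0.35 for complex IV, and 0.29 and 0.27 for complex V. Under spike-in scaling the KO medians of the complex I accessory subunits, the core and complexes II and V were -0.04, -0.09, -0.14 and -0.01. Ndufb3, an accessory subunit of the membrane arm, had levels of 5.50 in both KO and WT macrophages with TNF, against 4.91 and 4.83 without TNF. Under the 75th percentile scaling it passed 1.5-fold in both genotypes, at 0.59 in KO, close to the limit of 0.585, and 0.67 in WT. The pairs of values did not overlap there, with TNF above as in 30.2% of all genes. Spike-in scaling lowers the KO differences by 0.30, so that Ndufb3 falls short of 1.5-fold in KO. Ndufaf3, an assembly factor of complex I, had levels of 1.82 and 1.72 with TNF and 1.12 and 0.94 without, and was the highest member in both genotypes at 0.70 and 0.78. Uqcrq, a small subunit of complex III, had levels of 7.41 and 7.21 with TNF and 6.82 and 6.71 without, at 0.59 in KO, past 1.5-fold, and 0.50 in WT. The KO call of Uqcrq is likewise lost under spike-in scaling. Atp5g1, an isogene of the rotor's c ring, differed by 0.55 and 0.50, Sdhb by 0.50 and 0.55 and Cox5a by 0.44 and 0.50.

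Lower with TNF in both genotypes were 5 members (36.1% of all genes): Atp5f1, Atp5sl, Cox6a2, Cox7a1 and Sdha. Sdha, the catalytic subunit of complex II, had levels of 4.75 and 4.84 in KO and WT macrophages with TNF, and 4.97 and 4.87 without TNF. Its differences of -0.22 and -0.03 did not pass the rule and went against that of its partner Sdhb. Atp5f1, the subunit b of the stator stalk, differed by -0.20 and -0.0027, and Ndufs8, a core subunit of complex I, by -0.19 in KO and 0.03 in WT. The 13 mitochondrially encoded genes were at medians of -0.04 in KO and -0.17 in WT. The electron carrier Cycs was at 0.61 and 0.58, the TCA cycle genes at medians of 0.23 and 0.29 and the mitochondrial ribosomal proteins at 0.17 and 0.28. Of the related genes measured, Mdh2, the mitochondrial malate dehydrogenase, was more than 2-fold higher in both genotypes (1.04 and 1.11), as were the complex II assembly factor Sdhaf1 (1.08) and the complex IV partner Higd1a (1.07) in KO, which were at 0.88 and 0.82 in WT. Under spike-in scaling the KO values were 0.74 for Mdh2, 0.78 for Sdhaf1 and 0.77 for Higd1a, all short of 2-fold, and in WT Mdh2 was at 0.97 under quantile normalization and 0.94 after removal of the trend against intensity. Higd1a had levels of 6.48 and 6.04 with TNF and 5.41 and 5.21 without. Macrophage markers were more than 2-fold lower with TNF in 3 of 6 cases in each genotype, with medians of -0.94 in KO and -1.03 in WT, and their part was not tested.

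The TNF difference itself was compared between genotypes as the KO difference minus the WT difference. The median of the members was -0.01, against -0.03 for all genes, with 49 of 87 members below 0 (55.6% of all genes) and 38 above 0 (44.4%). Past 2-fold there were 0 members in either direction (1.37% higher and 0.628% lower among all genes), and past 1.5-fold 0 were higher (5.21%) and 1 was lower (3%), Ndufa4l2 at -0.70. The median changed sign when quantile normalization was used (0.04) and when the trend against intensity was taken out (0.03). The highest members were Cox7a1 (0.47), Cox6a2 (0.38), Cox7a2l (0.35) and Atp5c1 (0.26).

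The isoforms restricted to some tissues held the largest genotype differences among the members, but their signals were low. Over the arrays the processed signal ran from 10.3 to 293.6 for Ndufa4l2, 78.7 to 363.1 for Cox6a2 and 79.7 to 687.8 for Cox7a1. For Ndufa4 it ran from 2896 to 17331. Cox6b2, at 122.4 to 205.4, was also low and differed between genotypes by at most 0.20. The part of low signal in the large differences was not tested. Ndufa4l2 is a paralogue of Ndufa4 known for its induction by hypoxia. Its level was -4.44 in KO neutrophils, not well above background, and -2.76 in WT neutrophils. In macrophages it was -0.48 in KO and -2.81 in WT with TNF, and -0.48 in KO and -3.51 in WT without TNF. The KO macrophage arrays were thus high and every other array low. Ndufa4l2 was 5.03-fold higher in KO than in WT macrophages with TNF (log2 2.33) and 8.15-fold higher without TNF (log2 3.03), and at least 3.14-fold lower in KO than in WT neutrophils (log2 -1.65). Over the alternatives these values ran from 1.55 to 2.33, from 1.93 to 3.03 and from -2.07 to -0.33. The gene rests on 1 probe, at mm9 chr10:126954149-126954208. Ndufa4 itself, with levels of 3.69 and 4.02 in KO and WT neutrophils, 5.37 and 5.33 in KO and WT macrophages with TNF, and 5.17 and 5.09 in KO and WT macrophages without TNF, differed between genotypes by at most -0.33, in neutrophils.

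**Figure D5:**
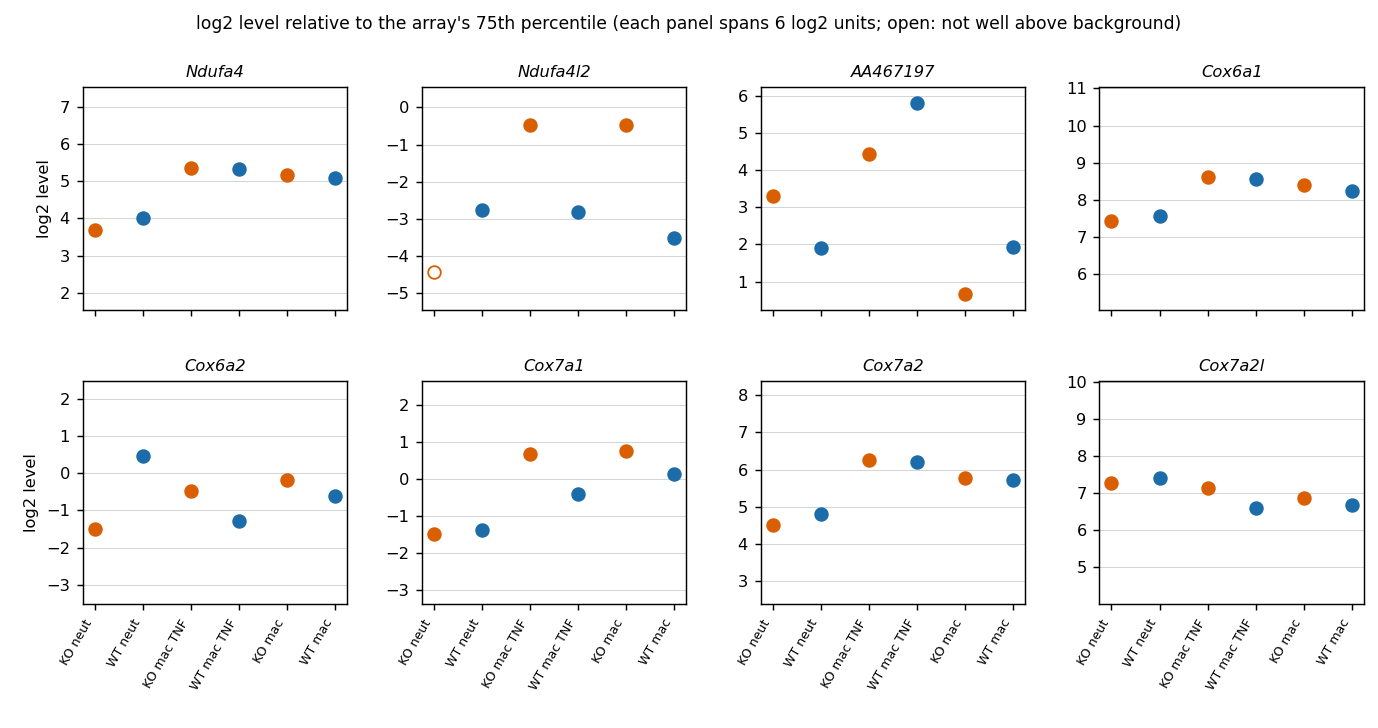
Log2 level (y axis, relative to the 75th percentile of each array) of 8 genes on the 6 arrays (x axis), KO in orange and WT in blue, each panel spanning 6 log2 units. Ndufa4l2 is at -0.48 on both KO macrophage arrays and at -2.76 or lower on the others, and AA467197 is highest with TNF, at 4.42 in KO and 5.81 in WT.

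AA467197, which is not a member by name, is a relative of Ndufa4 known to take its place in complex IV during inflammation. Its levels were 3.30 and 1.90 in KO and WT neutrophils, 4.42 and 5.81 in KO and WT macrophages with TNF, and 0.65 and 1.92 in KO and WT macrophages without TNF. With TNF it was 13.7-fold higher in KO and 14.8-fold higher in WT macrophages (log2 3.77 and 3.88). Between genotypes it was more than 2-fold lower in KO macrophages with TNF (-1.38) and without TNF (-1.27), and more than 2-fold higher in KO neutrophils (1.39), where spike-in scaling gave AA467197 0.979, just short of 2-fold. KO and WT values did not lie in the same order in the 2 cell types.

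Cox6a2 and Cox7a1 are the heart and muscle isoforms of Cox6a1 and Cox7a2. Cox6a2 had levels of -1.51 in KO neutrophils and 0.46 in WT neutrophils, -0.46 and -1.28 in KO and WT macrophages with TNF, and -0.17 and -0.61 in KO and WT macrophages without TNF. The KO neutrophil array was the lowest and the WT neutrophil array the highest of the 6. Cox6a2 was 3.91-fold lower in KO neutrophils (log2 -1.97), 0.81 higher in KO macrophages with TNF and 0.44 higher without TNF, and these macrophage values were 0.03 and -0.09 under spike-in scaling. With TNF it fell in WT macrophages by 0.67 on the log2 scale, past 1.5-fold, and the KO difference was -0.29. Cox6a1 differed between genotypes by -0.13 in neutrophils, 0.07 in macrophages with TNF and 0.18 without TNF.

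Cox7a1 had levels of -1.49 and -1.36 in KO and WT neutrophils, 0.68 and -0.40 in KO and WT macrophages with TNF, and 0.75 and 0.13 in KO and WT macrophages without TNF. The KO macrophage values were the highest, and both neutrophil values were the lowest. It was 2.12-fold higher in KO macrophages with TNF (log2 1.08) and 1.53-fold higher without TNF (log2 0.61), with ranges over the alternatives of 0.30 to 1.08 and 0.09 to 0.61. Cox7a2 differed by 0.04 with TNF and 0.05 without TNF. Cox4i2 had levels of 0.48 and 0.60 in KO and WT neutrophils, 0.16 and -0.0093 in KO and WT macrophages with TNF, and -0.03 and -0.17 in KO and WT macrophages without TNF, and its genotype differences of -0.11, 0.16 and 0.14 passed neither rule. Cox6b2, a testis isoform, differed between genotypes by 0.15, 0.20 and 0.16 in the same order, while Cox7b and Cox8a, the common partners of the isoforms that were not measured, differed by -0.28, 0.09 and 0.11 and by -0.03, 0.21 and 0.26. No share of any isoform in its complex can be given, since different probes are not comparable in level.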

How the data were processed

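Gene expression was measured on 6 Agilent mouse arrays of 1 slide, 1 array per group. Signal intensity is the scanner output deposited by the authors, background-subtracted by Agilent Feature Extraction 10.7.3.1 per the file headers; the log2 values were computed here from that deposited intensity. Outlier spots were dropped, spots averaged per probe, and log2 intensity was reduced by each array's 75th percentile over gene probes. A gene was tested where its probe was well above background on the brighter array; a dim array gives a bound. Differences were called by 2-fold and 1.5-fold rules, with no p-value. Python 3.11.15, numpy 2.4.6, pandas 2.3.3, statsmodels 0.14.6, R 4.3.3 and limma 3.58.1 (normexp) were used. Named genes were core subunits, isoform sets, the 4 highest and 4 lowest members per comparison and members past 2-fold, of which the longest list is given by class. Members and lists were chosen with earlier results of these data known. The 9 alternatives covered scaling, background, intensity trend, dim probes, probe choice and subunits only. After seeing the data, those that apply were also run on the mixed genotype pattern, the genes of other lists and, except trend removal, the order of arrays. Promoters are from RefSeq. The values of 1 core subunit are not reported here.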

Additional observations from a re-analysis of the deposited data

Results flagged for a closer look

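The genotype difference had opposite signs in the cell types for the members as a list and for 3 genes, under the 75th percentile scaling, and none of these differences between cell types was tested. The median log2 difference, KO minus WT, was -0.27 in neutrophils, 0.084 in macrophages with TNF and 0.10 in macrophages without TNF. Under spike-in scaling these medians were -0.68, -0.70 and -0.43, all of one sign, and the median without TNF was -0.0054 when arrays were quantile normalized and -0.0025 after removal of the trend against intensity. Ndufa4l2 was at -1.65 in neutrophils, a bound, 2.33 in macrophages with TNF and 3.03 without TNF. Its value in neutrophils ran from -2.07 to -0.33 over the alternatives. Cox6a2 was at -1.97 in neutrophils, 0.81 in macrophages with TNF and 0.44 without TNF, where spike-in scaling gave -0.09. AA467197 was at 1.39 in neutrophils, -1.38 in macrophages with TNF and -1.27 without TNF.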

How the results depend on the processing

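Each group had 1 array, so replicate error is unknown, and dim probes give bounds only. Pairing by replicate number was not possible because each group had 1 array, so that groups share fewer than 2 replicate numbers. A model of genotype with condition as a block, which the 6 arrays would allow, was not fitted. Scaling to the median of detected probes moved each list median by less than the scatter between repeated spots (KO minus WT to 0.06 with TNF and 0.08 without TNF) and each count by at most 1.5 times. Of 43 other probes of the members, 35 to 40 had the direction of the brightest one in each comparison. The cause of the changes below was not tested. With the intensity trend removed, the KO minus WT median without TNF was -0.0025, with 45 members below 0 and 1 past 1.5-fold, and 42 were below 0 with TNF. There, KO neutrophils minus macrophages was -0.81, the genotype difference in TNF response 0.028, TNF in WT 0.15, 1 member passed 1.5-fold with TNF in KO, and 30 were lower on all 3 KO arrays. Under quantile normalization, KO minus WT without TNF was -0.0054, with 46 below 0 and 1 past 1.5-fold, 28 members passed 2-fold in KO neutrophils against macrophages, and 30 were lower on all 3 KO arrays. The TNF medians were 0.12 in KO (16 below 0, 1 past 1.5-fold) and 0.10 in WT (20 below 0), and the difference in response was 0.041 (32 below 0). Scaled to the spike-in probes, KO minus WT was -0.68 in neutrophils (65 past 1.5-fold), -0.70 in macrophages with TNF (84 below 0, 74 past 1.5-fold, 5 past 2-fold) and -0.43 without TNF (85 below 0, 7 past 1.5-fold), with 0 members higher and 84 lower on all 3 KO arrays. Neutrophils minus macrophages was then -2.45 in KO (85 past 2-fold) and -2.26 in WT (85 past 1.5-fold, 82 past 2-fold), TNF in KO -0.034 (54 below 0, 1 past 1.5-fold) and the difference in response -0.27 (83 below 0). In WT neutrophils against macrophages, Cox4i2 turned to -0.82, Cox6a2 to -0.51, Cox7a2l to -0.84 and Ndufa4l2 to -0.83. With normexp, 1 member passed 2-fold with TNF in KO against WT and 1 passed 1.5-fold without TNF. In KO against WT neutrophils 1 passed either rule. With TNF, 1 in KO and 2 in WT passed 1.5-fold, 0 did for the difference in response, and WT neutrophils minus macrophages was -0.82. With probes required above background on all 6 arrays, which leaves out Ndufa4l2, 1 member passed 2-fold in KO against WT with TNF, 0 passed 2-fold and 1 passed 1.5-fold without TNF, 1 passed either rule in neutrophils and 0 passed 1.5-fold for the difference in response. With no filter, 5 passed 1.5-fold in KO against WT with TNF, adding the dim Cox7b2 and Cox8c. With the median over probes, Atp5j, whose second probe was not well above background on any array, was at 0.35 in KO neutrophils against macrophages, 1 member passed 2-fold with TNF in KO, and 2 passed 1.5-fold and 1 passed 2-fold for the difference in response. With subunits only, KO neutrophils minus macrophages was -1.11 and 5 were below 0 with TNF in WT.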
